A study of Drosophila melanogaster with 6 samples.

Results

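The Hippo pathway components are 10 *Drosophila melanogaster* genes, *ft*, *ds*, *kibra*, *ex*, *Mer*, *hpo*, *sav*, *wts*, *mats* and *yki*, taken by symbol from the 17807 genes of the table. All 10 had a row, and 9 of them were among the 7893 genes abundant enough to be tested. The study asked which genes respond when *ovo*, whose product is a zinc finger regulator of germ cells, is depleted. The table covers polyadenylated RNA of ovarian somatic cells (OSCs), a cultured line that comes from ovarian follicle cells. Every library came from Δ*l(3)mbt* OSCs, a line in which *l(3)mbt*, a repressor of germline genes, was knocked out, so the control group carries the knockout too. The *ovo* siRNA group (3 libraries) received a 21 nt duplex against *ovo*, and the *renilla* siRNA group (3 libraries) received a duplex against *renilla* luciferase, a gene that flies lack. RNA was taken 48 h later. The study describes the replicates as distinct samples, and neither it nor the labels say whether these were separate cultures, so the p values measure the spread between these libraries.

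The Hippo pathway limits growth by holding back the transcriptional coactivator Yorkie. Signals from the atypical cadherin Fat, which binds the cadherin Dachsous on the neighbouring cell, and from the apical proteins Kibra, Expanded and Merlin, act on a core of the kinases Hippo and Warts with their partners Salvador and Mats. Warts phosphorylates Yorkie and keeps it out of the nucleus, where it would otherwise join the DNA-binding protein Scalloped at growth and survival genes. *ex*, *kibra* and *Mer* are themselves known Yorkie targets, which forms a negative feedback, and in the follicular epithelium the pathway is known for restraining proliferation.

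The siRNA that separates the groups is shown first, because every comparison rests on it, with bases 2 to 8 of the antisense strand (the seed) in capitals.
ovo siRNA antisense: uCGUCGUCcacgcagcuccuu
ovo siRNA sense: ggagcugcguggacgacgagg
The first 19 of the 21 bases of the antisense strand were searched on the X chromosome of dm6, and the remaining bases were not compared. Those 19 matched at chrX:5066361-5066379, inside a coding exon of all 5 annotated *ovo* transcripts. The match was the only one on the X chromosome.

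The promoters of the 3 members that fell, *kibra*, *ex* and *ft*, are shown with that of *Mer*, which held a match without passing the test. Each runs from 250 bases before to 50 bases after the start of the transcript that Ensembl marks as canonical, so 1 start per gene. The sequence is that of the RefSeq dm6 genome, on the strand of the gene. The study's top motif for Ovo was CCGTTA, and CNGTTA was its secondary, looser form. Its own motif searches used wider windows around the start. Capitals mark the letters CNGTTA, searched on both strands, so that an antisense match reads TAACNG.
kibra: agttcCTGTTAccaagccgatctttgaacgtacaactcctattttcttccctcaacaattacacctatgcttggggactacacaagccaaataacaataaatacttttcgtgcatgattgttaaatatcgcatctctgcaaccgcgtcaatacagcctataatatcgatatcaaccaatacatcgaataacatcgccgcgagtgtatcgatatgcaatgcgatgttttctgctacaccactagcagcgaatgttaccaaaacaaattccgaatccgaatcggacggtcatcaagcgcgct
ex: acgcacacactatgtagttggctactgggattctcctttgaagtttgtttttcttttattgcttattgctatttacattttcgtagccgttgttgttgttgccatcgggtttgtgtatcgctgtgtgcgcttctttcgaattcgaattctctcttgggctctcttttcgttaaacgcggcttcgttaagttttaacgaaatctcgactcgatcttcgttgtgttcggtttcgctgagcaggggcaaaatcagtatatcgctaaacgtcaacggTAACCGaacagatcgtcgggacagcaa
ft: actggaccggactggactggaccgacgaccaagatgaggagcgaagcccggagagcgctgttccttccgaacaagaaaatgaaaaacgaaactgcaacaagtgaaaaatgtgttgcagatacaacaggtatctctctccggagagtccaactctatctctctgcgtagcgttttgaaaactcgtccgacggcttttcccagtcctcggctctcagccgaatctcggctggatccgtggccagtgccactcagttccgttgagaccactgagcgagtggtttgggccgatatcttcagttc
Mer: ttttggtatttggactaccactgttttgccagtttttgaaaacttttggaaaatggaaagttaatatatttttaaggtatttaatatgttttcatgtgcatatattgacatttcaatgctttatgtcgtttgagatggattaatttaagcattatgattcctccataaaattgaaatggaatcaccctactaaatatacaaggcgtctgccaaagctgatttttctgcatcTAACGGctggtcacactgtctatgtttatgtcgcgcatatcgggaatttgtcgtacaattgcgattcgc
These windows lie at chr3R:14724212-14724511 (*kibra*), chr2L:430977-431276 (*ex*), chr2L:4221747-4222046 (*ft*) and chrX:19693451-19693750 (*Mer*). Among the 10 members, *kibra*, *ex*, *Mer* and *mats* held 1 match each, beginning at position -245 in *kibra*, 24 in *ex*, -19 in *Mer* and -33 in *mats* relative to the start. Of 13891 promoters of protein-coding genes of the same length, 38.7% held a match. Only the match in *Mer* (TAACGG, antisense) was of the top form CCGTTA. Those in *kibra* (CTGTTA), *ex* (TAACCG, antisense) and *mats* (TAACAG, antisense) differed from it at the second letter. Among the members that fell, the *ft* window held none. The core recognised by Scalloped, GGAATG on either strand, occurred in *sav*, 39 bases before the start, and 2 times in *yki*, against 1528 of the 13891 promoters. A match is a description of letters and not of binding.

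The deposited values are DESeq2-normalized counts, which are reads per gene divided by 1 size factor per library. They went back to whole reads. The shallowest library, *renilla* siRNA replicate 3, held 2759594 reads and the deepest held 21481506, so that 1 read is worth from 0.464 to 4.38 normalized counts. *renilla* siRNA replicate 3 stood apart from the other 5 libraries on the second principal component (30.8% of the variance), at -36.48 against 23.97 and 25.15 for the other *renilla* siRNA libraries. Across 7868 genes its log2 difference from those libraries decreased with the merged exon length of the gene, by 0.324 and 0.334 per doubling of length. A drift with length was also present among the *ovo* siRNA libraries, where the log2 difference of replicate 1 from replicates 2 and 3 increased by 0.136 and 0.191 per doubling. Between *renilla* siRNA replicates 1 and 2 the slope was -0.01. The targeted *ovo* measured 961, 885 and 875 normalized counts in *ovo* siRNA replicates 1, 2 and 3, and 1300.0, 1590.4 and 1642 in the *renilla* siRNA libraries, with no overlap (log2 fold change -0.73 ± 0.13, limma adjusted p = 0.00862). The *ovo* call was lost without *ovo* siRNA replicate 2 (-0.71, limma adjusted p = 0.0601) and when length and GC trends were taken out (-0.37, adjusted p = 0.19). With the trends taken out it passed when replicate number was added as a block (adjusted p = 0.0347), and without *renilla* siRNA replicate 3 the change shrank to -0.13 (adjusted p = 0.286). RNA of the knocked-out *l(3)mbt* was still counted in all 6 libraries, at 1668 to 3399 normalized counts, and its difference did not pass the test (0.34, limma adjusted p = 0.267). It passed as higher with the trends taken out (0.30, adjusted p = 0.0404). All 7 genes listed for follicle cells and OSCs (*tj*, *fs(1)Yb*, *piwi*, *Fas3*, *shg*, *zfh1* and *armi*) were abundant. Their summed level was 44545 to 55408 in the *ovo* siRNA and 45614 to 61073 in the *renilla* siRNA libraries. The study does not name *piwi* or *armi* as soma-specific genes. *piwi* and *armi* had means of 14666 and 12456.5 in the *ovo* siRNA and 11717 and 10337 in the *renilla* siRNA libraries. With them included, the sum does not separate follicle cells from germ cells. *Lsp1alpha*, *Lsp2* and *Fbp1* of the fat body were at 0 in every library. Single follicle cell markers differed between the groups. *zfh1* was 1.87-fold lower and *tj* 1.43-fold lower on *ovo* siRNA (limma adjusted p = 0.0168 and 0.0286), and *fs(1)Yb* was 1.53-fold higher (adjusted p = 0.0353). Of the markers of other cells, 4 of 7 passed the filter on low values for germ cells, 2 of 6 for hemocytes, 3 of 6 for muscle and 2 of 6 for neurons. Their summed levels in the *ovo* and *renilla* siRNA libraries were 3487 to 3749 and 2934 to 3683 for germ cells, 537 to 818 and 319.7 to 632 for hemocytes, 139.8 to 188 and 215 to 270.2 for muscle, and 1616 to 1839 and 1752 to 2413 for neurons. Single genes carried most of these sums outside muscle. They were *vas* (means 2252 and 1963) and *bgcn* (1223 and 1243) for germ cells, *srp* (512 and 427) for hemocytes and *elav* (1693 and 2015) for neurons. Other genes of these lists had means of 131 (*Pxn*, *ovo* siRNA) or lower, so the sums do not measure numbers of such cells. Among the markers of other cells, *grk*, *bt* and *para* fell and *Mlc2* rose (limma adjusted p = 0.0298, 0.00791, 0.00194 and 0.0308). The part of such shifts in the members' changes was not tested. In bulk RNA, fewer cells of a type and less RNA per cell cannot be told apart.

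Among the 9 members tested, 3 (*ft*, *ex* and *kibra*) fell on *ovo* siRNA, 0 rose, and 6 did not pass the test (limma adjusted p below 0.05 over all genes tested). Of all genes tested, 14.1% fell and 11.8% rose, or 25.9% in either direction, and the members' share was not tested against this background. At an unadjusted p under 0.05, 1 member (*sav*) was higher, and edgeR and DESeq2 on the recovered reads called the same 3 falls and 0 rises. The members' median log2 fold change was -0.176, against 0.043 over all genes tested. The groups did not overlap for 6 of the 9, with *ovo* siRNA lower in 4 (*ft*, *ex*, *kibra* and *yki*) and higher in 2 (*hpo* and *sav*), where 45.2% of all genes did not overlap (21.7% lower and 23.6% higher).

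**Figure D1:**
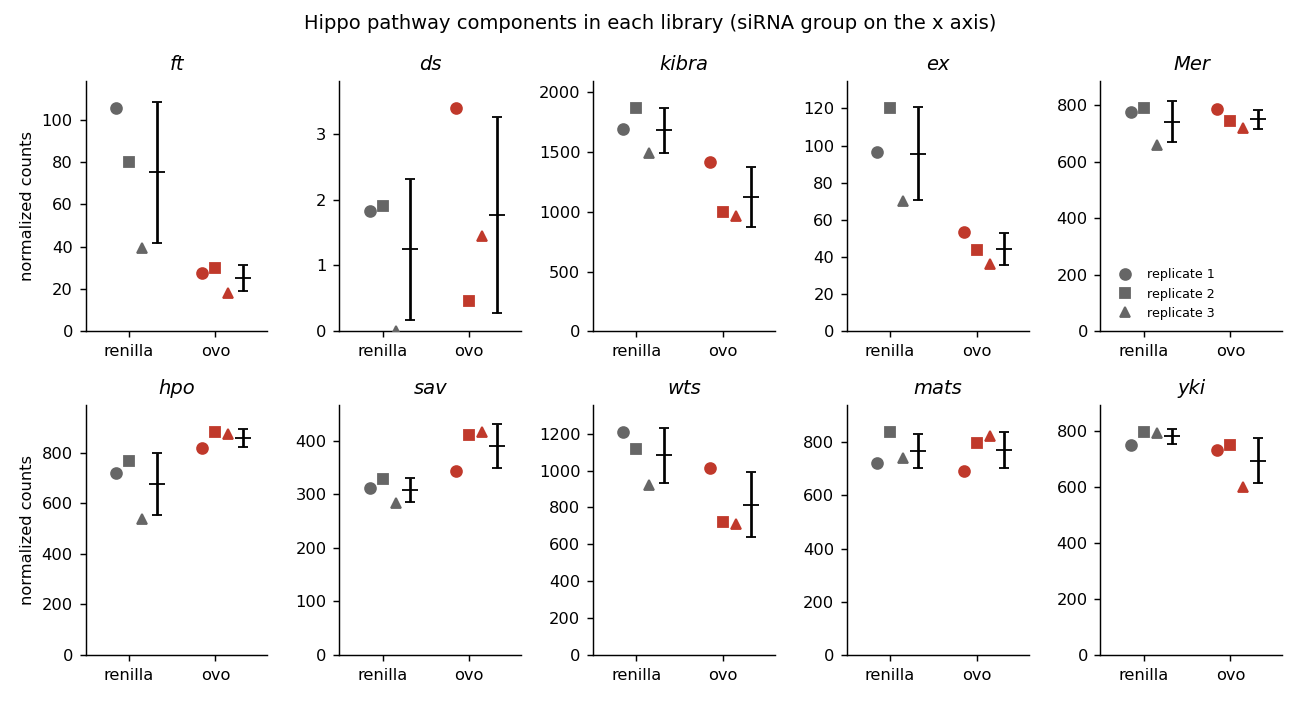
Normalized counts (y axis, linear from 0, a scale per gene) of the 10 Hippo pathway components in each library, with the siRNA group on the x axis, a symbol per replicate, and the mean ± SD of 3 libraries as a black bar. All 3 *ovo* siRNA libraries lay below all 3 *renilla* siRNA libraries for *ft*, *kibra*, *ex* and *yki* and above them for *hpo* and *sav*, and *ds* stayed below 4 normalized counts.

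The Fat receptor and its ligand Dachsous were the least abundant members. *ft* (FBgn0001075, chr2L:4198404-4221796 in dm6) measured 27.7, 29.7 and 18.1 normalized counts in *ovo* siRNA replicates 1, 2 and 3, and 106, 80.2 and 39.4 in *renilla* siRNA replicates 1, 2 and 3. The *ovo* siRNA libraries were all lower, and *renilla* siRNA replicate 3, with 9 *ft* reads, was the lowest of the controls. The difference came to a log2 fold change of -1.46 ± 0.39 (limma adjusted p = 0.0307), or 2.75-fold lower with a 95% interval of 1.47 to 5.14. *ds* (FBgn0284247, chr2L:640013-714983) had 7, 1 and 2 reads in the *ovo* siRNA libraries and 2, 2 and 0 in the *renilla* siRNA libraries. It did not reach the filter on low values, 10 normalized counts in 3 or more libraries, and was not tested. Most of these values are within the 3 reads that a count of 0 still allows.

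Of the apical proteins, Kibra is a WW domain scaffold and Expanded and Merlin are FERM domain proteins that join it at the cell cortex. *kibra* (FBgn0262127, chr3R:14697689-14724261) measured 1418, 999.97 and 962 normalized counts in *ovo* siRNA replicates 1, 2 and 3 against 1689.9, 1871 and 1493 in *renilla* siRNA replicates 1, 2 and 3. The groups stayed apart by the narrow gap between *ovo* siRNA replicate 1 and *renilla* siRNA replicate 3. The change was -0.60 ± 0.18 on the log2 scale (limma adjusted p = 0.0438), a level 1.51-fold lower. *ex* (FBgn0004583, chr2L:431227-448701) measured 53.4, 43.7 and 36.3 in the *ovo* siRNA libraries against 96.6, 120.3 and 70.1 in the *renilla* siRNA libraries. It had the smallest adjusted p of the members, with -1.07 ± 0.26 (limma adjusted p = 0.0224), or 2.10-fold lower with a 95% interval of 1.38 to 3.20. *Mer* (FBgn0086384, chrX:19689697-19693500) lay at 787, 744 and 720.1 normalized counts against 776, 791 and 661. Its groups overlapped, and the interval of its log2 fold change, -0.27 to 0.31 around 0.02 ± 0.12, leaves room for a change of about that size either way (limma adjusted p = 0.934).

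In the core cassette, no gene passed the test. *hpo* (FBgn0261456, chr2R:19493996-19496856), the upstream kinase, measured 817, 883 and 872 normalized counts in the *ovo* siRNA libraries and 721, 768 and 539 in the *renilla* siRNA libraries. Every *ovo* siRNA library was higher, though the lowest of them was 817 against 768 in the highest control (0.36 ± 0.16, limma adjusted p = 0.133). *sav* (FBgn0053193, chr3R:23058609-23061304), the scaffold of Hippo and Warts, was at 343, 412 and 418 against 312, 329 and 285, also without overlap (0.34 ± 0.14, limma adjusted p = 0.118). Of its exon bases, 3.27% are shared on the same strand with *Ctns*. Reads there fall on both genes, and their effect on its count was not tested.

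*wts* (FBgn0011739, chr3R:30789625-30806619), the kinase that phosphorylates Yorkie, measured 1016, 723 and 708 normalized counts in the *ovo* siRNA libraries against 1212, 1116 and 919.5 in the *renilla* siRNA libraries. *ovo* siRNA replicate 1 lay above *renilla* siRNA replicate 3, so the groups overlapped (-0.42 ± 0.18, limma adjusted p = 0.13). *mats* (FBgn0038965, chr3R:22421161-22423302), the Mob family partner of Warts, was at 693, 797 and 822 against 722, 840.1 and 740.0, with a log2 fold change of 0.01 ± 0.13 and a 95% interval of -0.29 to 0.30.

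The effector *yki* (FBgn0034970, chr2R:24065975-24068485) measured 732, 748 and 600.45 normalized counts in *ovo* siRNA replicates 1, 2 and 3, and 749.8, 797 and 793 in *renilla* siRNA replicates 1, 2 and 3. All *ovo* siRNA libraries were lower, but replicates 1 and 2 by little, and the difference did not pass the test (-0.18 ± 0.13, 95% interval -0.48 to 0.13, limma adjusted p = 0.353). The RNA of *yki* does not report the location or phosphorylation of its protein.

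The members that fell were also long genes. Merged exons added up to 16.852 kb for *ft*, 6.672 kb for *ex* and 5.75 kb for *kibra*, and to 5.803 kb for *wts*, while the other members tested were of 1.525 kb (*yki*) to 3.4 kb (*Mer*). Among all 789 genes over 6 kb that were tested, 39.2% fell and the median log2 fold change was -0.463. Among the 913 genes of 4 to 6 kb, 18.8% fell and the median was -0.131. The median was 0.124 at 2 to 4 kb and 0.187 at 1 to 2 kb, the classes of *hpo*, *sav*, *Mer*, *mats* and *yki*.

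**Figure D2:**
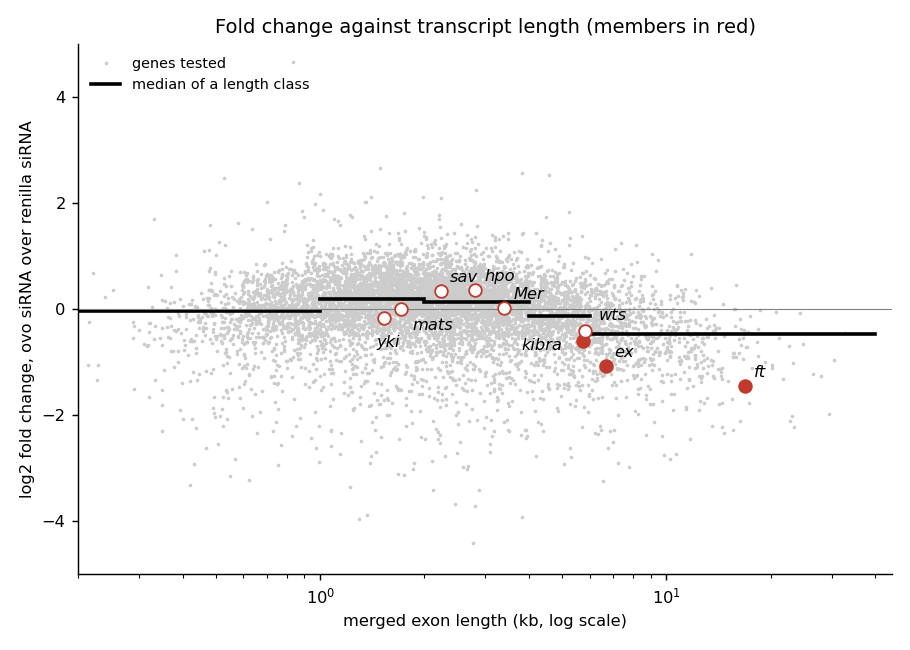
Log2 fold change of *ovo* siRNA over *renilla* siRNA (y axis) against merged exon length in kb (x axis, log scale), with a grey point for each gene tested, a black line at the median of each length class, and the members in red (filled where the limma adjusted p is below 0.05). *ft*, *ex* and *kibra* lie below the medians of their classes, -0.463 over 6 kb and -0.131 at 4 to 6 kb.

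Since the trend with length spans all genes, the members were also fitted after a smooth trend in length and GC content was taken out of each library. *ex* still fell (-0.77 ± 0.18, limma adjusted p = 0.0142), as did *kibra* (-0.48 ± 0.12, adjusted p = 0.021), while *ft* no longer passed (-0.82 ± 0.29, adjusted p = 0.0607). With the same trend removed, *ft* did pass with the replicate block (adjusted p = 0.0362) and without *renilla* siRNA replicate 3 (-1.06, adjusted p = 0.0029). Past the threshold came *yki*, which fell by 0.38 ± 0.12 (limma adjusted p = 0.0414), and *hpo*, which rose by 0.34 ± 0.10 (adjusted p = 0.032). In that fit *sav* turned from 0.34 to -0.21, short of the threshold in both. Of all 7868 genes in the fit, 12.3% fell and 16.3% rose.

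The calls also changed when 1 library was left out, and so did the share of all genes that fell. Without *ovo* siRNA replicate 2, *ovo* siRNA replicate 3, *renilla* siRNA replicate 1 or *renilla* siRNA replicate 2, 0 of the 9 members passed, and 4.84%, 6.91%, 8.72% and 7.14% of all genes fell. In these fits the limma adjusted p ran from 0.0656 to 0.0926 for *ex*, from 0.0856 to 0.111 for *ft* and from 0.106 to 0.177 for *kibra*, and the unadjusted p of all 3 stayed under 0.05. Without *ovo* siRNA replicate 1, *ex* and *kibra* passed and *ft* did not (limma adjusted p = 0.0724), where 10.0% of all genes fell. Without *renilla* siRNA replicate 3, the shallow library, the falls were steeper, at -1.86 ± 0.26 for *ft* (limma adjusted p = 0.000328), -1.28 ± 0.22 for *ex* (adjusted p = 0.000896) and -0.68 ± 0.16 for *kibra* (adjusted p = 0.0045). *wts* then fell as well (-0.53 ± 0.15, adjusted p = 0.0138), and 24.4% of all genes fell. The direction of *ft*, *ex*, *kibra*, *wts*, *yki* and *hpo* was the same in every fit that was run.

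**Figure D3:**
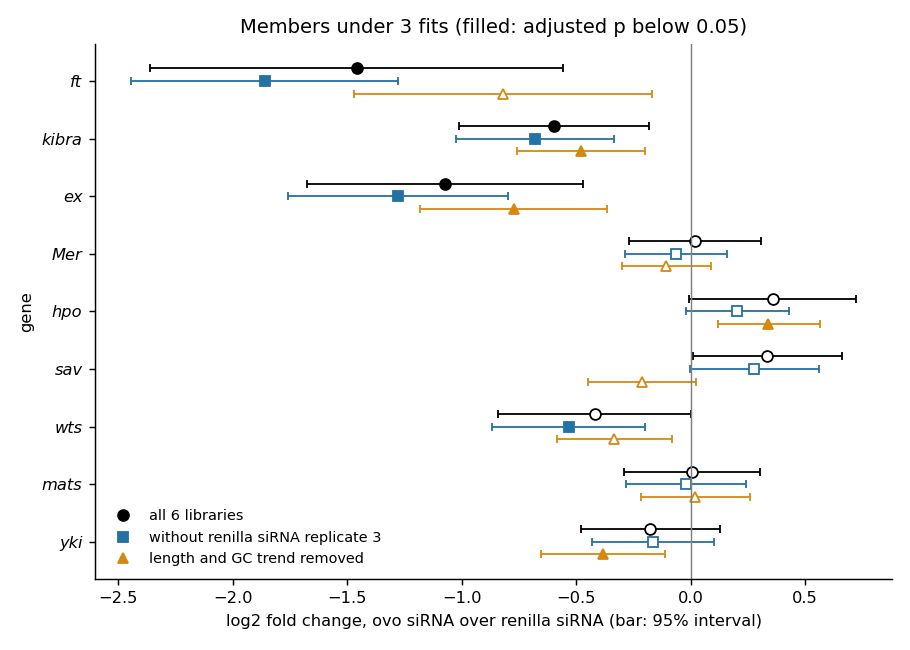
Log2 fold change of *ovo* siRNA over *renilla* siRNA (x axis, with 95% intervals) of the 9 members tested (y axis) in 3 limma fits, filled where the adjusted p is below 0.05. *ex* and *kibra* are filled in all 3, *ft* is open after the length and GC trend was removed, and *sav* crosses 0 between fits, from 0.34 to -0.21.

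Per kb of merged exons, a rough scale for comparing genes with each other, the control levels spanned from *yki* at 511 ± 17.1 normalized counts per kb (SD, n = 3) to *ds* at 0.1. Merged exons join all annotated transcripts of a gene, and the drift with length between libraries remains in these values. Below *yki* came *mats* (447), *kibra* (293), *hpo* (241), *Mer* (219), *wts* (187) and *sav* (138), then *ex* at 14.3 and *ft* at 4.46. In the *renilla* siRNA libraries the neighbours *kibra* and *hpo*, *hpo* and *Mer*, and *Mer* and *wts* overlapped in range, and the other neighbours did not. In the *ovo* siRNA libraries, *kibra* at 196 ± 44.0 per kb stood below *hpo* (306) and *Mer* (221), and *wts* at 141 stood below *sav* (175). There *yki* (455) and *mats* (449) overlapped, as did *Mer* with *kibra*, *kibra* with *sav* and *sav* with *wts*. *ex* and *ft* were at 6.66 and 1.49 per kb.

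**Figure D4:**
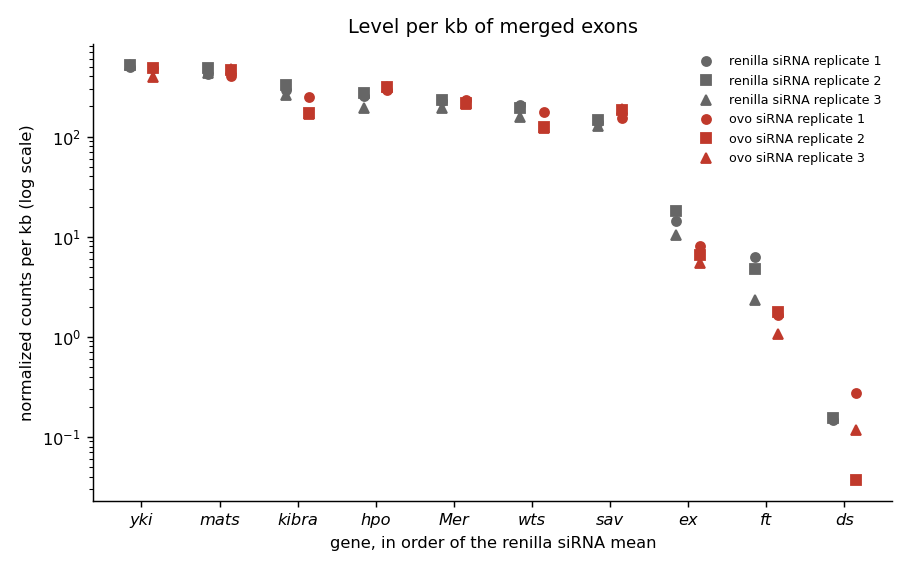
Normalized counts per kb of merged exons (y axis, log scale) of the 10 members, ordered by the *renilla* siRNA mean, with a symbol for each replicate in grey (*renilla* siRNA) and red (*ovo* siRNA). Levels run from 511 per kb for *yki* to 0.1 for *ds* in the controls, and the *ds* value of *renilla* siRNA replicate 3 is 0 and not drawn.

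The genes whose pattern over the 6 libraries was most like that of *yki*, among 6333 genes whose mean reached 100 normalized counts, were *CG7565* (Pearson's r = 0.9618), *p38a* (0.9611) and *nonA-l* (0.9282). For *ex*, among 6334 genes, they were *LIMK1* (0.9983), *vsg* (0.998) and *Akt1* (0.9972). These are descriptions over 6 libraries that share group, depth and length trend.

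Another 81 genes of the pathway were taken in 6 lists by role, and 75 of them were measured. On *ovo* siRNA 24 fell, 1 rose and 50 did not pass the test, and their median log2 fold change was -0.325. The background for these counts, and for each list below, is the 14.1% of all genes that fell and the 11.8% that rose. Without the length and GC trend, 10 of 74 fell and 4 rose, with a median of -0.038, where 12.3% of all genes fell and 16.3% rose. Without *renilla* siRNA replicate 3, 41 of 74 fell and 3 rose, where 24.4% and 26.2% of all genes did. The lists were chosen with results of these data known, so their directions are not independent evidence. In 4 of the lists limma, edgeR and DESeq2 called 0 rises, and at an unadjusted limma p under 0.05 the only higher gene in these 4 was *Patj* of the apical and junction branch.

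The Yorkie targets had the lowest median of the lists (-0.839), with 6 of 12 measured genes falling and 1 rising. With the length and GC trend removed, 3 fell, 1 rose and the median was -0.252. *Myc*, a transcription factor that drives growth, measured 2904, 2368 and 2827 normalized counts in the *ovo* siRNA libraries and 8168, 8198 and 11945 in the *renilla* siRNA libraries. The groups were far apart (-1.79 ± 0.18, limma adjusted p = 0.00205), but with the length and GC trend removed the change was -0.65 and short of the threshold (adjusted p = 0.0843). It passed with the trend removed and the replicate block (adjusted p = 0.00565), and at a smaller size without *renilla* siRNA replicate 3 (-0.37, adjusted p = 0.00386). *upd3*, a ligand of the JAK/STAT pathway, fell from 125 ± 30.5 to 33.5 ± 5.45 (SD, n = 3; -1.85, limma adjusted p = 0.0031), and *vn*, a ligand of the EGF receptor, fell by 1.23 (adjusted p = 0.00534). Both passed with the trend removed, at -2.03 and -0.86. *chinmo*, a BTB zinc finger transcription factor, had a log2 fold change of -1.303 (limma adjusted p = 0.0031), and of -0.19 with the trend removed, short of the threshold (adjusted p = 0.458).

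*fj*, the Golgi kinase that phosphorylates Fat and Dachsous, was the listed gene that rose. It measured 158, 127 and 127 normalized counts in the *ovo* siRNA libraries against 55.6, 76.4 and 83.2 in the *renilla* siRNA libraries, all higher (0.94 ± 0.21, limma adjusted p = 0.017). It passed with the trend removed as well (0.75, adjusted p = 0.0471) and lost the call without *ovo* siRNA replicate 1, 2 or 3 (adjusted p from 0.06 to 0.0734). *Diap1*, an inhibitor of apoptosis, and *CycE*, a cyclin, the survival and cycle genes through which Yorkie is usually read, were picked after their values were seen. *Diap1* had a log2 fold change of 0.19 and *CycE* of -0.29, and neither passed (limma adjusted p = 0.261 and 0.214). Without *renilla* siRNA replicate 3, *CycE* passed as lower, and with the trend removed as well *Diap1* passed as higher.

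Of the nuclear partners of Yorkie, 2 of 8 fell and 0 rose, with a median of -0.112. *Ncoa6*, a coactivator subunit, fell by 1.23 (limma adjusted p = 0.00534) and passed without the trend (-0.88, adjusted p = 0.0384). *sd*, which encodes Scalloped, measured 3180, 2678 and 2637 normalized counts against 4540, 5249 and 4909 (-0.79 ± 0.13, limma adjusted p = 0.00657). Its exons span 8.766 kb, and with the trend removed the direction turned to 0.05 (adjusted p = 0.835). In that fit 1 of the 8 partners fell, 0 rose (2 were higher at an unadjusted limma p under 0.05) and the median was 0.022.

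In the Fat and Dachsous branch, 4 of 10 measured genes fell and *fj* rose (median -0.448). With the trend removed 0 of 9 fell (2 were lower at an unadjusted limma p under 0.05), *dco* and *fj* rose, and the median was -0.059. Leaving out *renilla* siRNA replicate 3 as well gave 3 falls, 3 rises and a median of 0.05. *dco* is named here after its values were seen. *Zyx*, the zyxin that acts with Dachs on Warts, fell by 0.65 (limma adjusted p = 0.009), and *wap*, a WD40 adaptor, by 0.67 (adjusted p = 0.0115). *d*, the unconventional myosin Dachs, fell by 1.21 (adjusted p = 0.0152), from 30.4 ± 0.723 to 12.7 ± 1.62 normalized counts (SD, n = 3). With the trend removed, *Zyx* (-0.09) and *wap* (-0.23) did not pass, though both did without *renilla* siRNA replicate 3 as well (limma adjusted p = 0.0384 and 0.00661), and *d* had no annotated length and was not fitted.

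In the apical and junction branch, 6 of 17 fell and 0 rose (median -0.482). With the trend removed 2 fell (*kst* and *par-6*), 0 rose (2 were higher at an unadjusted limma p under 0.05), and the median was -0.05. *kst*, the apical spectrin subunit, measured 53.9, 37.6 and 34.1 normalized counts in the *ovo* siRNA libraries against 248, 272 and 109 in the *renilla* siRNA libraries. It fell by 2.22 ± 0.36 (limma adjusted p = 0.00634) and by 1.69 with the trend removed (adjusted p = 0.00138). The polarity gene *par-6* fell by 0.70 (limma adjusted p = 0.00634) and passed both fits. *sdt*, the partner of Crumbs, and *ed*, an adhesion protein that binds Salvador, fell by 0.96 and 0.81 (limma adjusted p = 0.00511 and 0.00633), and neither passed with the trend removed (adjusted p = 0.143 and 0.0736). With the trend removed and the replicate block both passed (adjusted p = 0.0101 and 0.0229), and without *renilla* siRNA replicate 3 *ed* passed (0.0226) and *sdt* did not (0.0998).

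Among the inhibitors of Hippo or Warts, 1 of 18 fell and 0 rose, with a median of 0.019. DESeq2 on the recovered reads called 5 falls, where 18.9% of all genes fell. Without *renilla* siRNA replicate 3, limma called 7 falls, where 24.4% of all genes fell. With the trend removed 2 fell (*POSH* and *Rae1*), *Cul4* rose, and the median was 0.156 (these 3 genes are named after their values were seen). Leaving out *renilla* siRNA replicate 3 as well gave 3 falls, 5 rises and a median of 0.036, where 19.1% of all genes fell and 25.4% rose. In the first fit the gene that fell was *mts*, the catalytic subunit of protein phosphatase 2A (-0.47, limma adjusted p = 0.0408), which did not pass without the trend (adjusted p = 0.278). Of the other regulators, 5 of 12 fell and 0 rose (median -0.427). Among those that fell were the small GTPase *Rho1* (-0.64), the kinase cofactor *Mob2* (-0.50), the Ste20 kinase *msn* (-0.75) and the casein kinase *gish* (-0.80). With the trend removed 2 fell (*msn* and *Rok*), *fry* rose, and the median was -0.11. *Rok* and *fry* are named after their values were seen. Without the trend, *msn* passed (-0.59, limma adjusted p = 0.00373), *Rho1* (-0.30, adjusted p = 0.051) and *Mob2* (-0.14) did not, and *gish* turned to 0.14 (adjusted p = 0.247). *Rho1* passed once the replicate block was added (adjusted p = 0.0314) or *renilla* siRNA replicate 3 was left out (0.0054).

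Among the listed genes named here, *Ncoa6*, *Myc*, *upd3*, *vn*, *chinmo*, *sdt*, *kst* and *par-6* passed whichever library was left out. The calls of *sd* (limma adjusted p = 0.053) and *ed* (0.0536) were lost without *ovo* siRNA replicate 2, and those of *Zyx* and *Rho1* without *ovo* siRNA replicate 2 or 3. *wap* lost its call without either of these or *renilla* siRNA replicate 2, and *d*, *Mob2*, *msn* and *gish* without any 1 of *ovo* siRNA replicates 2 and 3 and *renilla* siRNA replicates 1 and 2. Of the fits with 1 library left out, *mts* passed only in that without *renilla* siRNA replicate 3.

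**Figure D5:**
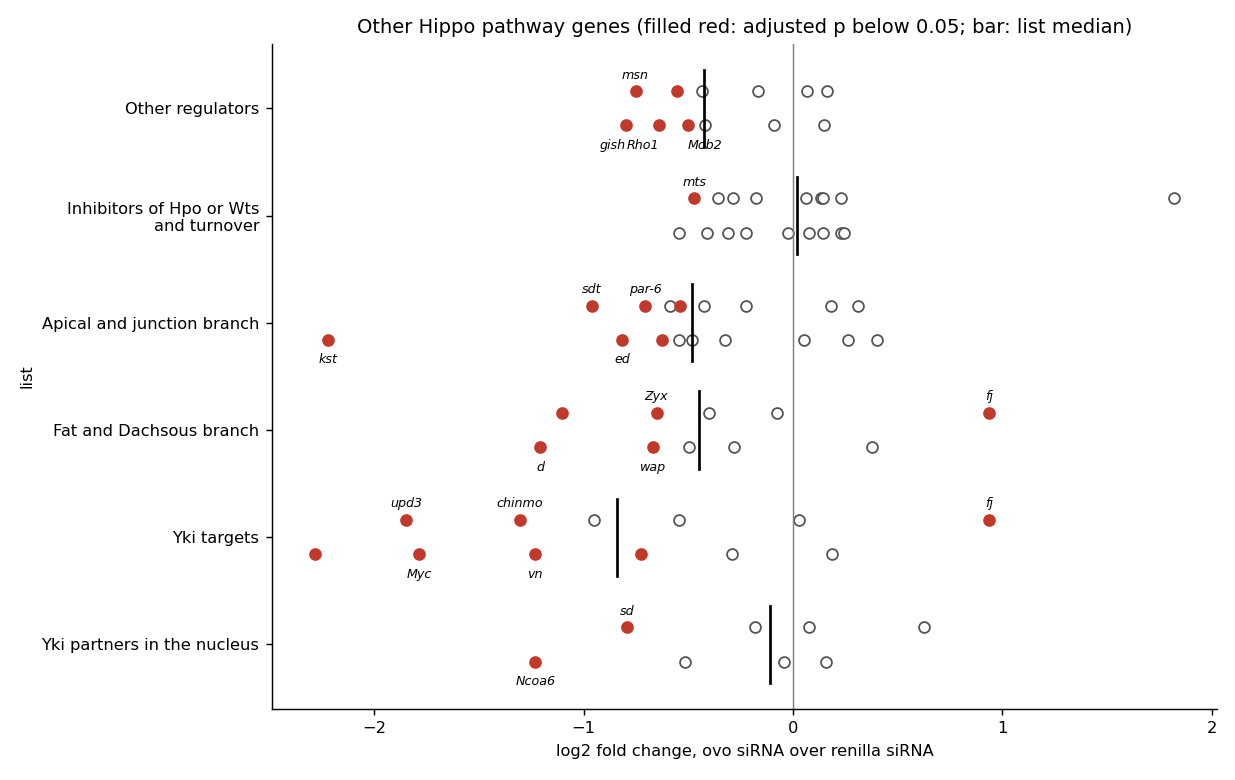
Log2 fold change of *ovo* siRNA over *renilla* siRNA (x axis) of the measured genes of 6 Hippo pathway lists (y axis), filled red where the limma adjusted p is below 0.05, with a black bar at each list's median and the named genes labelled. The medians run from -0.839 for the Yorkie targets to 0.019 for the inhibitors, against 0.043 over all genes tested, and *fj* is the red point on the right.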

How the data were processed

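RNA-seq was done on 6 libraries of Δ*l(3)mbt* OSCs, 3 per siRNA. Per the labels, 500 ng of total RNA gave strand-specific poly(A) libraries. The submitters' notes name cutadapt 1.18, STAR 2.7.3a, featureCounts (Subread 1.5.3) and DESeq2 1.30.1. Reads were aligned to dm6. The authors deposited a signal, reads per gene divided by the size factor of each library. All values (100%) lay within 0.01 of a whole read (largest deviation 0.00027). Their second table holds their own fold changes and p values and was not used.

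With limma 3.58.1 (R 4.3.3), a linear model with a mean-dependent prior was fitted to log2 (value + 1) of the 7893 genes that reached 10 normalized counts in 3 or more libraries. Fold changes on this scale understate those of low genes. Two-sided p values received Benjamini-Hochberg adjustment over these genes (threshold 0.05). An exact permutation test of 3 against 3 cannot go below 0.1 and was not used. Values are ± SE of the fit for fold changes and ± SD for levels, and floors (3 reads) cover counting error only. On the recovered reads, edgeR 4.0.16 called 2284 genes and DESeq2 1.42.0 called 2634, against 2045 here. Other alternatives were a pseudocount of 0.5 or 5, a filter of 50 or none, quantile normalization, TMM, a replicate block, a robust prior, reads thinned to the smallest library, natural splines (5 degrees of freedom each) in log2 length and GC taken out of each library, and each library left out. Of the 17807 symbols, 17019 matched the annotation directly and 723 by an older symbol, and 99.7% of the genes tested had length and GC. The procedure was tested on simulated data.

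The members and lists were chosen with earlier results of these data known. Named were all members, *ovo*, *l(3)mbt*, per list up to 4 genes past the threshold in order of adjusted p, and the 3 genes closest in pattern to *yki* and to the member with the smallest adjusted p.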

Additional observations from a re-analysis of the deposited data

How the results depend on the processing

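Of the 3 falls among the members, 1 remained in count with no filter or quantile normalization, 5 were counted with the length and GC trend removed together with the replicate block or without *renilla* siRNA replicate 3 (a fit chosen after seeing the data), and 0 to 4 when libraries were left out. The members' rises went from 0 to 1 in each fit with the trend removed. Over 20 alternatives *ex* and *kibra* passed in 15 each, and *ft* passed in 11 of 19. Over all genes, 1114 falls became 380 to 1883 when libraries were left out. The 931 rises became 1475 with the replicate block, 557 in thinned reads, 1662 with trend removal and block, 1954 with trend removal without *renilla* siRNA replicate 3, and 116 to 2022 when libraries were left out. In the pathway lists, 24 falls became 10 with the trend removed and 8 to 41 when libraries were left out, and 1 rise became 3 with the block, 4 with the trend removed, 7 with both, 12 with the trend removed without *renilla* siRNA replicate 3, and 0 to 3 when libraries were left out.

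Some directions reversed. *Mer* turned to -0.02 with quantile normalization and with DESeq2, -0.05 in thinned reads, -0.11 with the trend removed (with or without the block) and -0.08 with the trend removed without *renilla* siRNA replicate 3, and ran from -0.06 to 0.07 when libraries were left out. *mats* turned to -0.02 with quantile normalization, with DESeq2 and to -0.06 with the trend removed without *renilla* siRNA replicate 3, and ran from -0.04 to 0.08 when libraries were left out (below 0 in 4 of 6 fits). In the trend fits (alone, with the block, and without *renilla* siRNA replicate 3) *sav* was -0.21, -0.21 and -0.25, *gish* 0.14, 0.14 and 0.04, and *sd* 0.05, 0.05 and 0.16. The cause was not tested.

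Whether the replicate numbers pair the samples is not stated in the labels and could not be settled from so few libraries. Deviations of same-numbered libraries correlated at 0.442, -0.143 and 0.464. The same-numbered control was the best match for *ovo* siRNA replicates 1 and 3, though replicate 1 was nearly as close to *renilla* siRNA replicate 2 (0.434). *ovo* siRNA replicate 2 correlated best with *renilla* siRNA replicate 3 (0.154). With the replicate block, 4 members fell (*wts* joined, -0.42, limma adjusted p = 0.0307), as did 1503 genes in all and 31 of the lists. At 9 to 16 reads in *renilla* siRNA replicate 3, depth limits *ft* and *ex*.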

Other observations

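Ratios of reads within a library do not depend on its size factor. The ratios below were picked after the values were seen and carry no test. *wts* reads per *hpo* read were 1.25, 0.819 and 0.811 in *ovo* siRNA replicates 1, 2 and 3, and 1.68, 1.45 and 1.71 in *renilla* siRNA replicates 1, 2 and 3, without overlap, although neither gene passed the test on its own. *kibra* reads per *Mer* read were 1.80, 1.34 and 1.33 against 2.18, 2.36 and 2.26, and *ex* reads per *Mer* read were 0.068, 0.059 and 0.05 against 0.124, 0.152 and 0.106, both without overlap. *Mer* is a Yorkie target and an apical partner like *kibra* and *ex*, and its level differed little between the groups. As *kibra* and *ex* had no overlap on their own, their ratios to *Mer* largely repeat that result. The share of all gene pairs without overlap was not computed. Within the core, *sav* reads per *hpo* read overlapped, at 0.42, 0.466 and 0.479 against 0.434, 0.429 and 0.528. The genes paired in the first ratios differ in length, and the part of length in them was not tested.

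The shallow control library differed from the other controls in the members as well. Its log2 level against the mean of *renilla* siRNA replicates 1 and 2 was -1.22 for *ft*, -0.62 for *ex*, -0.47 for *hpo*, -0.34 for *wts* and -0.25 for *kibra*. It was -0.245 for *Mer*, -0.17 for *sav*, -0.08 for *mats* and 0.04 for the shortest member, *yki*. For *ds*, with 0 reads in that library, it was -1.52. The order did not follow length throughout, as *hpo* (2.804 kb) lay below *wts* (5.803 kb).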
